A study of Mus musculus with 2 samples.

Results

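The 4 splicing events described here lie in Celf1, Celf2, Rbm5 and Thrap3, genes whose products themselves regulate splicing. They are all the rows that the authors' table of differential splicing gives for these genes, 4 of 100 listed events. Each gene had 1 row. The Thrap3 row carries the symbol Colec12 in the table, but the identifiers beside it are those of Thrap3 (ENSMUSG00000043962) and of a small RNA gene. It is written as Thrap3 here. Poly(A)-selected RNA of mouse embryonic fibroblasts was sequenced in paired-end libraries, 1 from wild-type cells and 1 from cells deficient in SRSF10. The labels name no strain, age, allele or way in which the deficiency was made, and no treatment.

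CELF1 and CELF2 belong to the CUGBP, Elav-like family, RNA-binding proteins with 3 RNA recognition motifs that bind GU-rich sequence and act on splicing, mRNA decay and translation. RBM5 acts in splice site pairing during early spliceosome assembly and is known for its effect on splicing of apoptosis genes. THRAP3, also called TRAP150, is an arginine- and serine-rich protein found with spliceosomes and with transcription complexes. SRSF10, the missing factor, is an SR protein that can activate or repress exons. Transcripts of splicing regulators are often alternatively spliced themselves, and some of these isoforms code for another protein while others are removed by nonsense-mediated decay.

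All 4 events were cassette exons, that is, internal exons that are included or skipped. Coordinates are those of the table in mm9. The Celf1 exon has 152 nucleotides (chromosome 2, 90827822 to 90827973, plus strand) and lies between introns of 47023 and 10763 nucleotides. The Celf2 exon has 144 nucleotides (chromosome 2, 6470878 to 6471021, minus strand), the Rbm5 exon 61 (chromosome 9, 107658184 to 107658244, minus strand) and the Thrap3 exon 88 (chromosome 4, 125871561 to 125871648, minus strand). Introns beside the Rbm5 exon were the shortest of the 4 pairs, 995 and 1364 nucleotides.

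**Figure D1:**
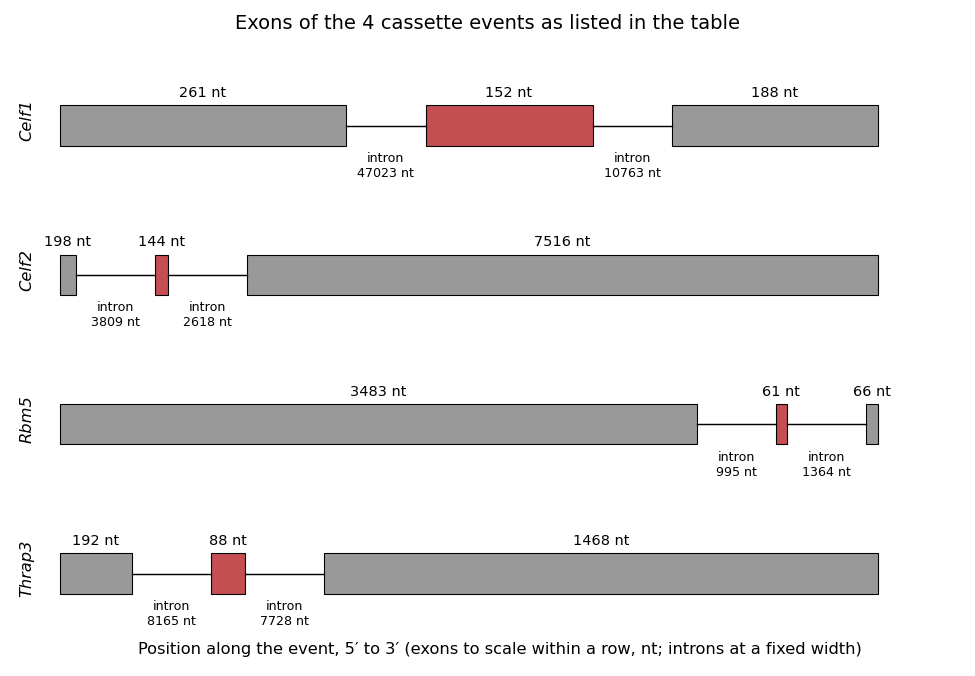
Exons of the 4 events as the table lists them, with the cassette exon in red between the upstream exon on the left and the downstream exon on the right. Exon widths are to scale in nucleotides within each row, and introns are drawn at a fixed width with their length written below. A single long flanking exon makes up most of the Celf2, Rbm5 and Thrap3 events, while the 3 exons of Celf1 are of similar size.

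Each exon was found in GENCODE M21 transcripts of its gene by its length and that of both neighbouring introns. The sequences of the exons of Celf1, Celf2 and Rbm5 are shown because they carry what inclusion adds to the reading frame. They come from GENCODE M21 transcripts, with GRCm38 coordinates. For Celf1 (chr2:90987746-90987816, plus strand) the coding part of 71 nucleotides is given with the start codon in capitals. For Celf2 (chr2:6549832-6549975, minus strand) and Rbm5 (chr9:107755853-107755913, minus strand) the whole exon is given, and capitals mark the bases of codons that its junctions split.
Celf1: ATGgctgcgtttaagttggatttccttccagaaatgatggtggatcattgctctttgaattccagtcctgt
Celf2: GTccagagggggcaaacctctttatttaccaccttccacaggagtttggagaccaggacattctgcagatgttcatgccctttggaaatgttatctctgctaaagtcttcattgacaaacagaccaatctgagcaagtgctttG
Rbm5: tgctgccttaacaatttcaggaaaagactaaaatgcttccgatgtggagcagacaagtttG

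The exons differ in what they do to the annotated protein. The Celf1 exon is the second of 15 exons of the principal transcript, Celf1-201, and holds its start codon. That transcript codes for 513 codons. In the 3 annotated transcripts that skip the exon, all protein-coding, translation is annotated to start in the next exon, and they code for 486 or 487 codons. The Celf2 exon is a multiple of 3 in length and adds 48 codons, from 478 to 526 in Celf2-204. These codons lie in the third RNA recognition motif. GENCODE lists the exon in 11 Celf2 transcripts, 9 of them protein-coding, and its skipping in 4, all protein-coding.

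The Rbm5 exon, of 61 nucleotides, is not a multiple of 3. It is exon 8 of 25 in Rbm5-214 and codes for part of a zinc finger of the RanBP2 type. When it was removed from this transcript in silico, the frame met a stop codon 28 codons after the new junction, in exon 10 and 1607 nucleotides before the last junction. Of the 4 Rbm5 transcripts annotated with the skip, 0 are protein-coding, 2 are labelled as nonsense-mediated decay and 2 as retained intron. Of the 6 annotated with the exon, 3 are protein-coding, 2 are labelled as nonsense-mediated decay and 1 as retained intron. The Thrap3 exon holds 0 coding nucleotides in each annotated transcript that contains it. The exact structure of the table, with both introns, occurs in 1 transcript labelled as retained intron. The same exon and the intron after it occur in 2 protein-coding transcripts with another exon before it, where it is part of the 5′ UTR. The principal transcript, Thrap3-201, skips the exon.

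Purine-rich GA sequence is a reported preference of SRSF10, so AGAGA was looked for in the 4 exons as they read in the transcript. None of the 4 held these letters. Neighbouring exons and introns were not searched. Among internal GENCODE exons of the same length, 27.1% of 952 held them at the length of Celf1, 27.2% of 1369 at that of Celf2, 11.3% of 1044 at that of Rbm5 and 16.8% of 1281 at that of Thrap3. The purine share was 52.6% in the Celf1 exon, 47.9% in Celf2, 55.7% in Rbm5 and 51.1% in Thrap3, against medians of 52.0%, 52.8%, 57.4% and 53.4% for exons of the same length.

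The comparison asked how the use of these exons changed with the loss of SRSF10 in fibroblasts. Inclusion was higher in the deficient library for Celf1, Celf2 and Rbm5 and lower for Thrap3, by 20 to 39 percentage points. Inclusion is the authors' posterior mean of the share of transcripts with the exon, given with the authors' interval. Reads were deposited in 4 classes, according to whether a read could come from the inclusion isoform alone, from the exclusion isoform alone, from both, or from neither. The inclusion-only and exclusion-only reads, together called exclusive reads, were set against each other with Fisher's exact test (two-sided), and p-values were adjusted by the Benjamini-Hochberg method across all 100 events. To pass, an event needed an adjusted p under 0.05, at least 10 points of difference in inclusion and the same direction in the exclusive reads. Each genotype has only 1 library, so no replicate check exists, and the test compares these 2 libraries, not the genotypes. Intervals cover counting error only, and may be too narrow even for that, because amplified reads are not independent molecules.

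All 4 events passed, 3 higher and 1 lower. Of the 100 listed events, 49% passed with higher inclusion after SRSF10 loss and 37% with lower inclusion. The authors' intervals did not overlap in the 4 events, as in 83% of all listed events. The smallest listed difference was 20 points, so the table had been selected for a difference and the passing of these 4 is no separate support for one. By size of the difference, Rbm5 was at rank 36, Thrap3 at 55, Celf1 at 59 and Celf2 at 99, tied with 1 other event at that smallest value.

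**Figure D2:**
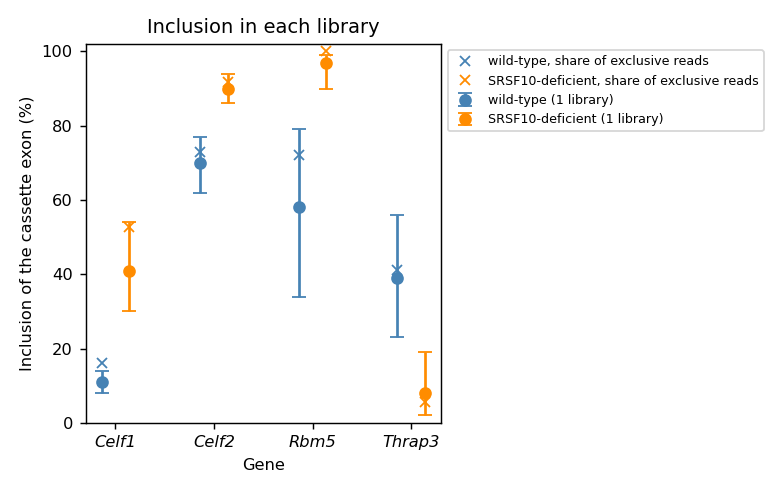
Inclusion of the cassette exon in percent in the wild-type (blue) and SRSF10-deficient (orange) library, 1 library each. Circles with bars are the authors' posterior mean and interval, and crosses are the share of inclusion-only among exclusive reads. Celf1, Celf2 and Rbm5 are higher and Thrap3 is lower in the deficient library by both measures, with intervals that do not overlap.

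In Celf1, the skipped form prevailed in wild-type cells, and in the deficient library the interval included equal use of both forms. Inclusion rose from 11% (authors' interval 8% to 14%) to 41% (30% to 54%). Of the exclusive reads, 42 showed inclusion and 218 skipping in the wild-type library, against 29 and 26 in the deficient one. As shares of inclusion these are 16.2% (exact 95% interval 11.9% to 21.2%) and 52.7% (38.8% to 66.3%), which passed the test (Fisher's exact test, adjusted p = 4.5e-07). The reads of the skipped form differed far more between the libraries than those of the included form, which carries the longer annotated amino terminus.

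In Celf2 the exon of the third RNA recognition motif was included in most transcripts of both libraries. Inclusion rose from 70% (62% to 77%) to 90% (86% to 94%). Inclusion-only reads numbered 105 in wild-type cells and 201 in deficient ones, and exclusion-only reads 39 and 18. The share of inclusion was 72.9% (64.9% to 80.0%) and 91.8% (87.3% to 95.1%), which passed the test (Fisher's exact test, adjusted p = 2.32e-05). The 2 classes therefore moved in opposite directions, with more included and fewer skipped reads in the deficient library.

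In Rbm5 the 61-nucleotide exon, whose skipping shifts the frame, was included in nearly all transcripts of the deficient library. Inclusion rose from 58% (34% to 79%) to 97% (90% to 99%). The wild-type value rests on 18 exclusive reads, 13 for inclusion and 5 for exclusion, a share of 72.2% (46.5% to 90.3%). The deficient library had 54 inclusion-only and 0 exclusion-only reads, an inclusion share of 100% with an exact 95% interval from 93.4%. The limit of 3 counts, a different rule, puts the skipped share for 0 reads among 54 at up to 5.56%, less than the exact interval allows. By Fisher's exact test the event passed with an adjusted p of 0.00181. Rbm5 had the fewest exclusive reads of the 4 genes in the wild-type library, where the authors' interval was also the widest.

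Thrap3 went the other way. Its 88-nucleotide exon was included in 39% (23% to 56%) of wild-type transcripts and in 8% (2% to 19%) of those in the deficient cells. Of the exclusive reads, 14 showed inclusion and 20 skipping in the wild-type library, against 2 and 33 in the deficient one. The shares of inclusion were 41.2% (24.6% to 59.3%) and 5.71% (0.7% to 19.2%), which passed the test (Fisher's exact test, adjusted p = 0.00176). The isoform of the principal transcript, without the exon, had the larger estimate in both libraries, although the wild-type interval reaches past equal use.

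The authors' deposited table gives a Bayes factor for each difference, 4.2e+14 for Celf1, 4.33e+07 for Celf2, 13781 for Rbm5 and 82.3 for Thrap3. The order follows neither the size of the difference nor the number of exclusive reads alone. The table also holds the reads as the authors assigned them to each isoform, which split the reads that fit both. In Celf2 the assignment was 633 included and 265 skipped reads in wild-type cells and 1485 and 172 in deficient ones, an inclusion share of 70.5% and 89.6%. In Rbm5 they were 329 and 59, and 647 and 26, a share of 84.8% and 96.1%. The Rbm5 share in the wild-type library thus stood at 58% by posterior mean, 72.2% by exclusive reads and 84.8% by assigned reads, measures that are not on the same scale. In Celf1 only 2 reads in each library fitted both isoforms. In Thrap3 they were 23 of the 57 wild-type reads that fitted at least 1 isoform, and 13 of 48 in deficient cells. The assigned shares of 16.4% and 52.6% in Celf1 and of 42.1% and 4.17% in Thrap3 lay close to the shares of exclusive reads.

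The reads by class show what stood behind each share. In Celf1 only 2 reads in each library fitted both isoforms, 0.456% of 439 wild-type reads over the event and 1.02% of 197 reads after SRSF10 loss. In Celf2 such reads made up 754 of 1109 and 1438 of 1996, or 68.0% and 72.0%, and in Rbm5 370 of 719 and 619 of 1012, or 51.5% and 61.2%. Over all listed events the median share was 13.3% in both libraries. Celf2 and Rbm5 are the events with a flanking exon of 7516 and 3483 nucleotides, which is 95.6% and 96.5% of the length of the inclusion isoform. In Thrap3 the longest flanking exon is 84.0% of that length, yet reads that fitted both isoforms made up 7.77% and 3.55%. A link between exon length and this class was not tested. The long Rbm5 exon of the table occurs in Rbm5-219, labelled as retained intron, while the coding transcript Rbm5-214 has 84 nucleotides at that place. For Celf2, an exon of near that length, 7509 nucleotides, is annotated in Celf2-214, which skips the cassette exon. In the annotated transcripts that include the cassette exon, the exon after it has 172 to 974 nucleotides.

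Most Thrap3 reads fitted neither isoform. They were 239 of 296 in wild-type cells and 318 of 366 in deficient ones, or 80.7% and 86.9%, against medians over all events of 47.0% and 49.4%. Only 12 of the 100 events had a higher share in wild-type cells, and 8 in deficient ones. In the table the exon after the Thrap3 cassette has 1468 nucleotides, against 154 in Thrap3-201. For Celf1 the class rose in share from 40.3% to 71.1%, with 177 and 140 reads, while exclusive reads went from 260 to 55. The sources used here do not say what these reads are.

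**Figure D3:**
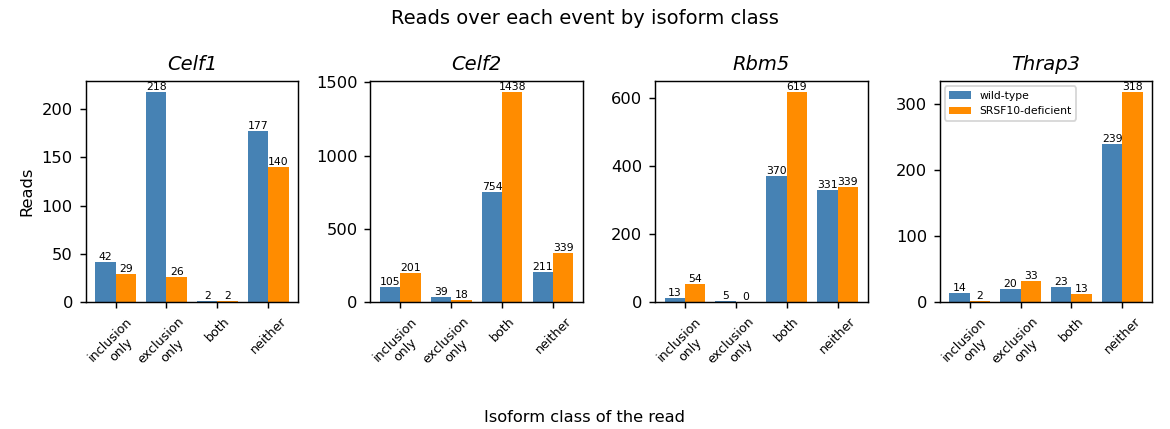
Reads over each event in the 4 isoform classes, as bars with the count above them, in the wild-type (blue) and SRSF10-deficient (orange) library. Each panel has its own linear axis from 0. The exclusion-only class of Celf1 falls from 218 to 26 reads. Reads that fit both isoforms or neither make up most of the Celf2, Rbm5 and Thrap3 events in both libraries. For Celf1 they do so in the deficient library only.

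The number of reads over an event sums all 4 classes, so it is not separate from inclusion: of the 439 wild-type and 197 deficient reads over Celf1, 260 and 55 were exclusive reads. The ratio of deficient to wild-type reads was divided by the median ratio of deficient to wild-type reads over the 96 genes of the table, 0.937. The median comes from genes listed for a splicing difference, not from all expressed genes, and the intervals do not cover its error. In a bulk sample, fewer cells of a type and less RNA per cell cannot be told apart. After scaling, the Celf1 reads of the deficient library came to 0.479 times those of the wild-type one (exact 95% interval 0.403 to 0.568), the fifth lowest ratio of the 96 genes. The ratio was 1.92 in Celf2 (1.78 to 2.07), the third highest, 1.50 in Rbm5 (1.36 to 1.65), the sixth highest, and 1.32 in Thrap3 (1.13 to 1.54), at rank 12. The interval lay above 1 in 21.9% and below 1 in 22.9% of the 96 genes.

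These ratios depended on which reads were taken, each set being divided by its own median ratio, 0.919 for reads that fitted at least 1 isoform and 0.890 for exclusive reads. With the reads that fitted at least 1 isoform, the ratio was 0.237 in Celf1 (0.174 to 0.316) and 1.89 in Rbm5 (1.66 to 2.14). In Thrap3 it was 0.916 (0.611 to 1.37), which turns the direction and leaves an interval on both sides of 1, while in Celf2 it was 2.01 (1.85 to 2.18). With exclusive reads alone the Rbm5 ratio was 3.37 (1.95 to 6.11), and the Thrap3 ratio was 1.16 with an interval of 0.701 to 1.91 that holds 1. Divided by 0.937 instead, the exclusive reads gave 3.20 in Rbm5 (1.85 to 5.80) and 1.10 in Thrap3 (0.665 to 1.82).

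By class, the scaled reads separated the 4 genes. In Celf1, exclusion-only reads stood at 0.127 times the wild-type level (0.0813 to 0.192) and inclusion-only reads at 0.737 times, with an interval of 0.443 to 1.21 that holds 1. A higher share of inclusion in Celf1 thus went with fewer skipped reads, while a change in included reads was not detectable at this depth. In Celf2, inclusion-only reads were 2.04 times (1.61 to 2.61) and exclusion-only reads 0.492 times (0.265 to 0.882) the wild-type level. In Rbm5, inclusion-only reads were 4.43 times (2.39 to 8.85), while the upper bound for exclusion-only reads, 0 against 5, was 1.16, so that a fall was not detectable at this depth. In Thrap3, inclusion-only reads were 0.152 times (0.0168 to 0.664) and exclusion-only reads 1.76 times (0.981 to 3.24). Over the 100 events, the interval of inclusion-only reads lay above 1 in 29% and below 1 in 30%, and that of exclusion-only reads above 1 in 17% and below 1 in 36%.

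**Figure D4:**
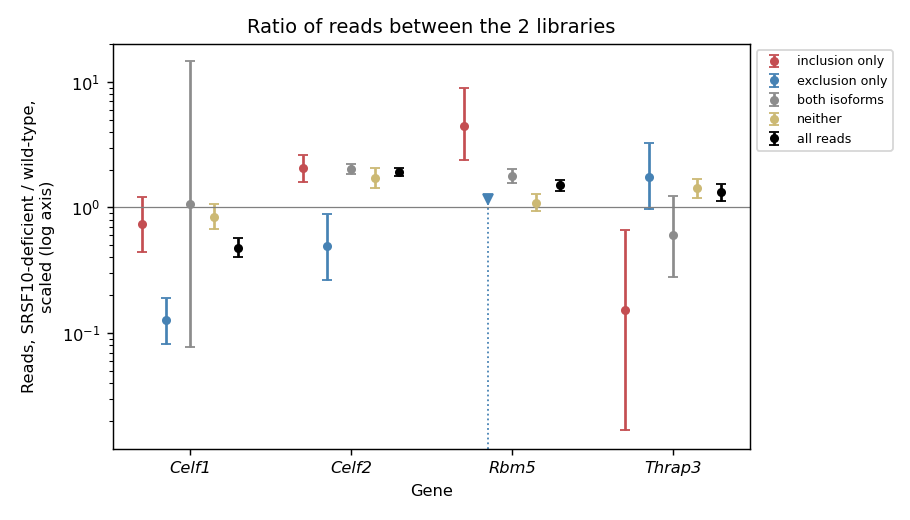
Reads in the SRSF10-deficient over the wild-type library, divided by the median ratio of the table's genes, on a log axis, for each isoform class and for all reads. Points are ratios with exact 95% intervals that cover counting error only, the triangle is the upper bound of the Rbm5 exclusion-only reads, which were 0 in the deficient library, and the grey line marks a ratio of 1. Celf1 lies below the line for exclusion-only reads, and Rbm5 and Celf2 lie above it for inclusion-only reads.

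Other splicing regulators give the setting. Of a list of 171 such genes, 10 had 11 events in the table, the 4 above and 7 more in Hnrnpa2b1, Hnrnph1, Hnrnpr, Ptbp1, Raly and Upf1. In these 11 events inclusion was higher in 6 and lower in 5, and 5 of each direction passed, against 86% of all listed events. The Upf1 event, 1 of the 5 lower ones, is of uncertain gene. The median size of the difference was 30 points in the list, 30.5 in the 4 events and 33.5 over all 100.

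**Figure D5:**
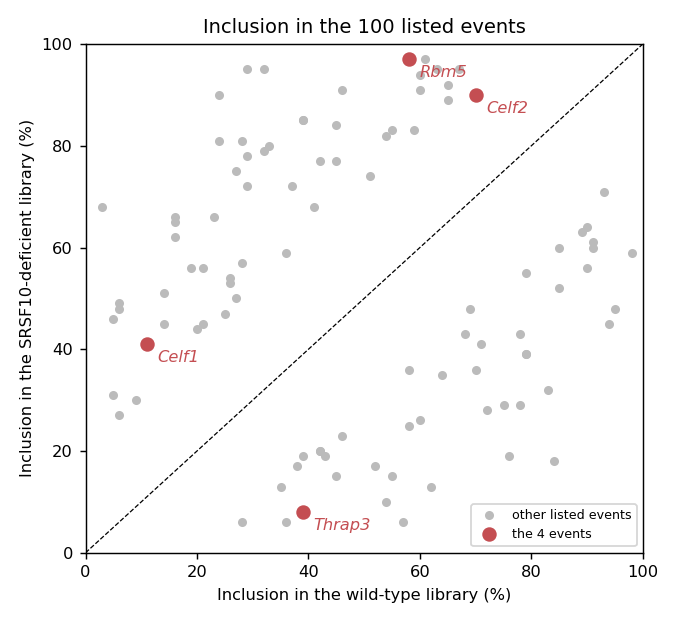
Inclusion in percent in the wild-type library (horizontal) and the SRSF10-deficient library (vertical) for the 100 listed events, with the 4 events in red and the diagonal dashed. No event lies within 20 points of the diagonal, since the table holds only events that differ by at least that much. Celf2 lies at that edge and Rbm5 near the upper end of the vertical axis.

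Raly, an RNA-binding protein gene of the hnRNP family, also had far fewer skipped reads in the deficient library, as Celf1 had. The table pairs its cassette exon with the identifiers of Raly and of a neighbouring gene. Inclusion rose from 51% (48% to 53%) to 74% (69% to 79%), and 710 of 1294 exclusive reads in the wild-type and 256 of 327 after SRSF10 loss showed the exon (adjusted p = 6.65e-14, Fisher's exact test). Its scaled exclusion-only reads were 0.130 times the wild-type level (0.0999 to 0.166), close to Celf1, but its inclusion-only reads were also lower, 0.385 times (0.332 to 0.444). The reads over the Raly event were 0.521 times the wild-type level (0.487 to 0.558). The cassette exon of Hnrnpa2b1 also had fewer exclusion-only reads, 0.274 times (0.159 to 0.452), but more inclusion-only reads, 5.33 times (2.33 to 14.2). In the other Hnrnpa2b1 event, with 7 exclusive reads in wild-type cells, exclusion-only reads were 2.13 times (0.306 to 23.6). No test of the likeness of these genes was made, and Raly and Hnrnpa2b1 were singled out after their values were seen.

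Ptbp1, a repressor of many exons, had fewer included and more skipped reads, with 0.686 times the inclusion-only (0.535 to 0.877) and 1.65 times the exclusion-only reads (1.17 to 2.32). For the helicase gene Upf1, which acts in nonsense-mediated decay, the table lists a fall from 79% to 39%, but all its read counts are the same as those of the Tjp1 event, so the gene it belongs to is uncertain.

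Summed over the 100 events, the wild-type library had 56927 reads and the deficient one 52735. Exclusive reads per event had a median of 42 and 38. Srsf10 itself had no listed event, and the table gives no expression levels, so neither the deficiency nor the labelled cell type could be checked. None of 25 markers of fibroblasts, adipocytes, macrophages and epithelial cells had a listed event.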

How the data were processed

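Reads were aligned with TopHat to mm9, per the submitters' processing notes, without a version. Not given in the sources used here are the program that estimated inclusion, its settings and the level of its intervals. Per the file headers, the deposited table gives inclusion as a fraction with bounds (multiplied to a percentage here), a Bayes factor, which is a ratio computed by the authors, and counts of reads by isoform class. Sample 1 was taken as wild-type and sample 2 as deficient from the labels' descriptions. Spreadsheet software had turned 9 cells of assigned reads into times of day, none in the 4 events.

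Fisher's exact tests, exact Clopper-Pearson 95% intervals of shares and intervals of read ratios derived from them were computed with scipy 1.17.1 in Python 3.11.15. The limit for a count of 0 is 3 counts of the total. For a gene with several events, the event with most reads entered the scaling. Symbols came from Ensembl identifiers, and all 96 genes matched. The 4 genes, the list of regulators and the tests were chosen with earlier results of these data known. The text names the 4 genes in full and members of the list with a listed event. Alternatives were inclusion reads divided by 2, Holm adjustment, at least 20 exclusive reads, non-overlapping authors' intervals and other scalings.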

Additional observations from a re-analysis of the deposited data

How the results depend on the processing

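The direction of the inclusion difference in the 4 events and their passing held under inclusion reads divided by 2 (largest adjusted p 0.0291, Thrap3), Holm adjustment (largest 0.0416, Rbm5) and non-overlapping authors' intervals, all by Fisher's exact test. Rbm5, with 18 exclusive reads in the wild-type library, could not enter the setting with at least 20, under which the other 3 passed. The number of listed events that passed was 86, and 36 with Holm adjustment, which is stricter by construction. The ratio of reads over the event kept its side of 1 without scaling and with scaling by summed reads. With reads that fit at least 1 isoform it was 0.237 in Celf1, 1.89 in Rbm5 and 0.916 in Thrap3, the last on the other side of 1, and with exclusive reads 0.238 in Celf1, 1.71 in Celf2, 3.37 in Rbm5 and 1.16 in Thrap3, where the interval held 1. These settings leave out reads that fit neither isoform, or also those that fit both, and use the median ratio of the reads kept. No paired analysis was possible because each genotype has 1 library, and no replicate could be left out. Few exclusive reads limit Rbm5 and Thrap3 most.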
